A study of Mus musculus with 14 samples.

Results

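The genes described here encode the T cell receptor complex and the first steps of its signalling in mouse liver tumours. They were taken as the rows of 10 named symbols: the CD3 chains Cd3d, Cd3e and Cd3g, the zeta chain Cd247, the kinases Lck and Zap70, the adaptor Lat, and the surface receptors Cd2, Cd5 and Cd28. All 10 are among the 29923 genes of the deposited expression table, and all 10 were among the 13466 genes that were tested because they reached 1 TPM (a length-scaled share of the library's transcripts) in at least 3 tumours. Cd5 and Cd28 only just entered, with 3 tumours each. For 3 genes, Cd247, Zap70 and Cd5, no vector tumour reached 1 TPM (highest 0.88, 0.93 and 0.31 TPM), so they entered only through the Aoah tumours, where they were high. A difference in these 3 genes was therefore favoured by the filter, and without any filter the Luc calls of Cd247 and Zap70 remained while that of Cd5 did not.

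The study profiled bulk RNA from 14 hepatocellular carcinomas of C57BL/6 mice, which arose after transposon plasmids were injected rapidly into the tail vein together with the SB100 transposase, so that liver cells take up the DNA. Luc Aoah tumours (n = 4) were given the MYC and luciferase plasmid and a PKT2/CLP plasmid for Aoah, the enzyme acyloxyacyl hydrolase, which removes fatty acyl chains from bacterial lipopolysaccharide; Luc vector tumours (n = 4) were given the empty PKT2/CLP plasmid in place of Aoah. LucOS Aoah (n = 3) and LucOS vector (n = 3) tumours differed from these in a MYC plasmid that also carries the OVA, SIN and SIY antigens. A plasmid for N90-CTNNB1, an activated beta-catenin, is listed without a statement of which tumours received it, and an anti-PD1 protocol is given without naming treated tumours. No age of the mice is stated in the labels. These number the tumours without saying that each came from its own animal, so p-values measure only the spread between these samples.

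T cells recognise antigen through a clonotypic receptor whose chains have almost no signalling part of their own; the CD3 chains and the zeta chain Cd247 carry the activation motifs. Lck, held at the membrane, phosphorylates those motifs, Zap70 then docks on them and phosphorylates Lat, and Lat assembles the enzymes that raise calcium and activate Ras. Cd28 gives the costimulatory signal, Cd2 binds Cd48 on neighbouring cells in the mouse and strengthens adhesion, and Cd5 dampens receptor signals. In the liver these genes mark T cells, although natural killer cells also express Cd247, Zap70, Lat, Lck and Cd2.

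As a check of the labels, the Aoah transcript was between 283.7 and 685.2 TPM among Luc Aoah tumours, against 0.74 to 54.76 TPM among Luc vector tumours. Among LucOS Aoah tumours it was between 576.0 and 931.1 TPM, against 1.28 to 3.43 TPM among LucOS vector tumours. Its groups did not overlap in either model, and Luc vector 1 and 3 were the vector tumours with raised Aoah. A tumour had 11478 to 12836 genes at 1 TPM or more, and TPM gives no library depth. Luc Aoah 3 stood apart, with 8.11% of its TPM in small noncoding genes against 0.0598% to 0.127% in the other tumours. LucOS Aoah 3 had 16.6% of its TPM in mitochondrial genes, against 3.41% to 8.45% elsewhere. Each count of called members is also given without these tumours at the end.

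Across the 10 genes, 8 were higher in Luc Aoah than in Luc vector tumours at a limma adjusted p under 0.05, and none was lower. Of those 8, Cd3d, Cd3g, Lck, Lat and Cd2 also reached 1 TPM in at least 3 vector tumours, and the other 3 are the genes that entered through Aoah tumours alone. Among all genes tested, 7.93% were called higher and 14.3% lower in that comparison. Summed over the 10 genes, Luc Aoah tumours held between 36.1 and 56.6 TPM, and Luc vector tumours between 7.36 and 11.6 TPM. The median log2 difference of the 10 genes was 1.30 on the TPM + 1 scale, whereas the median of all genes tested was -0.24. In LucOS tumours 2 of the 10 genes were called higher and none lower, where 0.75% of all genes were called higher and 0.215% lower. These were Cd3g and Zap70, and Zap70 is among the genes that entered through Aoah tumours alone. The sum was between 31.5 and 86.7 TPM with Aoah there, and between 7.43 and 20.7 TPM with vector, and the median log2 difference was 1.34, beside -0.02 for all genes. In bulk tumour RNA, more T cells and more RNA of these genes per T cell cannot be told apart. The same 8 genes that passed in Luc were also those whose 4 Aoah values all lay above all 4 vector values, as did 11.8% of all genes. In LucOS 8 genes had 3 Aoah values above all 3 vector values, against 6.22% of all genes.

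**Figure D1:**
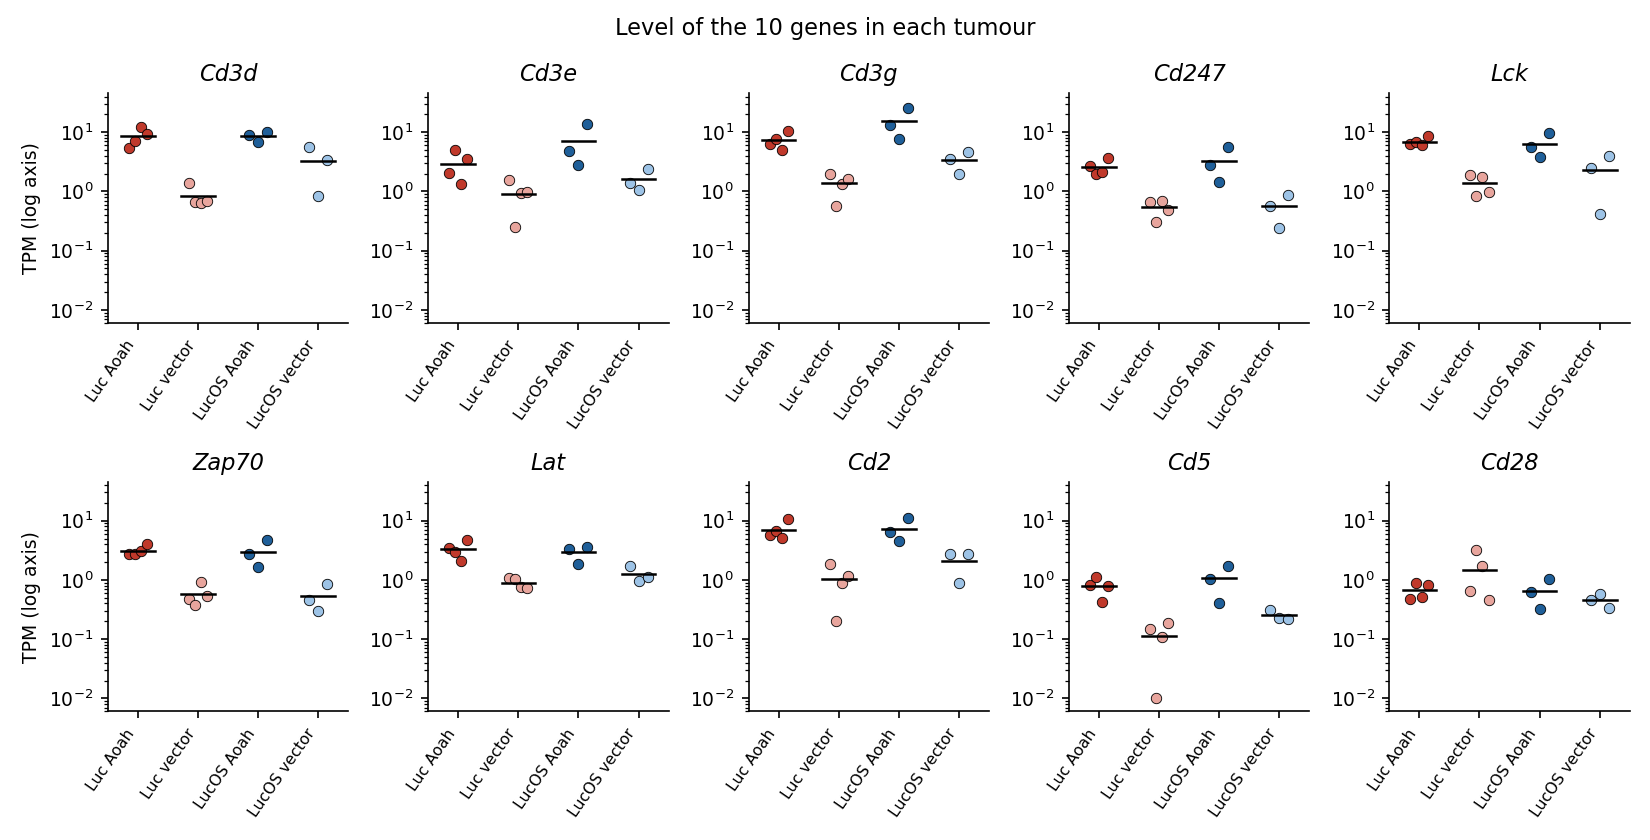
TPM of the 10 genes in each of the 14 tumours on a log axis, by group, with points for tumours and bars for group means. For every gene but Cd28, the mean of the Aoah tumours lies above that of the vector tumours in both models. The Luc vector tumour at 0.01 TPM of Cd5 and the Luc vector tumour at 3.14 TPM of Cd28 are the same tumour, number 2.

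The CD3 chains pair as gamma-epsilon and delta-epsilon dimers in the receptor. Cd3d had 5.33, 7.02, 12.45 and 9.31 TPM in Luc Aoah tumours, against 1.37, 0.66, 0.63 and 0.69 TPM in Luc vector tumours. Every Luc Aoah tumour was above every Luc vector tumour, with means of 8.53 ± 3.08 and 0.838 ± 0.356 TPM (SD, n = 4 each). The log2 difference was 2.34 (SE 0.34, limma adjusted p = 0.000661), the largest of the 10 genes, and 0.809% of all genes had a larger one. In LucOS, Cd3d had 9.00, 6.91 and 10.02 TPM in Aoah tumours, against 5.59, 0.84 and 3.43 TPM in vector tumours. Those groups did not overlap, but the vector tumours spread widely, and the log2 difference of 1.34 (SE 0.40) did not pass (limma adjusted p = 0.136).

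Cd3g, the gamma chain, had 6.42, 7.59, 5.01 and 10.53 TPM in Luc Aoah tumours, against 1.93, 0.57, 1.32 and 1.62 TPM in Luc vector tumours. It was also high in LucOS, with 13.28, 7.67 and 25.71 TPM in Aoah tumours, against 3.54, 1.95 and 4.70 TPM in vector tumours. Neither pair of groups overlapped. The log2 differences were close to each other, 1.83 in Luc (SE 0.34, limma adjusted p = 0.0034) and 1.81 in LucOS (SE 0.39, limma adjusted p = 0.0463). Cd3g and Zap70 are the only members called in both models. The LucOS call of Cd3g was lost in 10 of the 14 fits that left out 1 tumour, where its adjusted p reached 0.193 without LucOS Aoah 3.

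Cd3e, the epsilon chain shared by both dimers, behaved less evenly. Its level was 2.07, 4.93, 1.35 and 3.47 TPM in Luc Aoah tumours, against 1.54, 0.25, 0.93 and 0.96 TPM in Luc vector tumours. The groups overlapped through Luc Aoah 3 and Luc vector 1, and the log2 difference of 1.00 (SE 0.39) did not pass (limma adjusted p = 0.0733). Without LucOS Aoah 3 the limma adjusted p was 0.0376 at a log2 difference of 1.00, and with the tumours centred on their medians it was 0.0107. The Luc difference passed in only 4 of 27 alternative fits, and its limma adjusted p reached 0.215. In LucOS tumours Cd3e had 4.74, 2.77 and 13.63 TPM with Aoah, against 1.38, 1.06 and 2.39 TPM with vector. The groups did not overlap there, and the log2 difference was 1.42 (SE 0.45, limma adjusted p = 0.17).

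These genes lie together on chromosome 9, and Cd3g and Cd3d start 1355 bases apart on opposite strands. Their promoter windows are shown because the 3 genes are neighbours that encode 1 complex; each runs from 250 bases before to 50 bases after the RefSeq start on build GRCm38.p6, read 5′ to 3′ on the gene's own strand. The windows are chr9:44980382-44980681 on the minus strand for Cd3g, chr9:44981536-44981835 on the plus strand for Cd3d and chr9:45009562-45009861 on the minus strand for Cd3e. Capitals mark matches, on either strand, to 1 form of the E-box (CAGGTG) or to 1 ETS-family string (AGGAAG). Other forms of these sites were not searched and are not marked.
Cd3g: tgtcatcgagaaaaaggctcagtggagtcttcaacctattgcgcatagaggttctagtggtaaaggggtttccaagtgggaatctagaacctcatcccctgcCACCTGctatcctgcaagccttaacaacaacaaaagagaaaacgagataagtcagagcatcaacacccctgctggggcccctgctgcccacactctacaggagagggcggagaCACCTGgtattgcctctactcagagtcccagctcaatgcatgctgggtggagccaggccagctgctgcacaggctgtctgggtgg
Cd3d: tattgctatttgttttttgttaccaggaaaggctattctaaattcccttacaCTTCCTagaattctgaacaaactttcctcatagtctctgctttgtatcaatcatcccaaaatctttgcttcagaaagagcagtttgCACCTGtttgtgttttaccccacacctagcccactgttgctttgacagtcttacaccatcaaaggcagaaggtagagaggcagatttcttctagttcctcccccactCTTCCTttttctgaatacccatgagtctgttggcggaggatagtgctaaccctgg
Cd3e: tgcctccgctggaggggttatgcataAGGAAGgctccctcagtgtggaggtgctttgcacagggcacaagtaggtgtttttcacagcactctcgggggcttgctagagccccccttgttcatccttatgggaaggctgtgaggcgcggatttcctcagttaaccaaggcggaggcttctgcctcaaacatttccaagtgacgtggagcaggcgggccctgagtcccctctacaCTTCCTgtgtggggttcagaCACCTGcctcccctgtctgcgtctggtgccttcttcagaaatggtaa
Cd3g holds 2 matches to CAGGTG and none to AGGAAG, whereas Cd3d and Cd3e each hold 1 match to CAGGTG and 2 to AGGAAG. The table of windows matched 8 of the 10 genes, in 11 windows. The E-box form CAGGTG was found for 7 of the 8 genes and in 22.6% of all 27025 symbols. The ETS-family string AGGAAG was found for 7 of the 8 genes and in 38.4% of symbols. Of the other motifs searched on both strands, the RUNX motif TGTGGT was found for 3 genes, beside 18.9% of symbols. The GATA motif AGATAA was found for 1 gene, beside 12.7% of symbols. The TCF motif CTTTGAT was found for 1 gene as well, beside 4.29% of symbols. The TATA motif TATAAA was found for none, beside 15.7% of symbols. Matches of different motifs were allowed to overlap. A match is a description of the letters in a window.

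Cd247, the zeta chain, had a lower mean TPM than any of the CD3 chains in all 4 groups. Its levels were 2.73, 2.00, 2.12 and 3.60 TPM in Luc Aoah tumours, against 0.65, 0.30, 0.70 and 0.49 TPM in Luc vector tumours. Of the LucOS tumours, those with Aoah had 2.82, 1.46 and 5.62 TPM of Cd247, against 0.57, 0.24 and 0.88 TPM with vector. The groups were apart in both models. The log2 difference was 1.22 in Luc (SE 0.27, limma adjusted p = 0.00842) and 1.36 in LucOS (SE 0.31, limma adjusted p = 0.0511). The LucOS value passed in 5 of 27 alternative fits, among them the one without LucOS Aoah 2 (adjusted p = 0.0115).

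The kinases came next in the order of signalling. Lck had 6.34, 6.71, 6.06 and 8.63 TPM in Luc Aoah tumours, against 1.91, 0.83, 1.74 and 0.97 TPM in Luc vector tumours, so that its lowest Aoah tumour was well above its highest vector tumour. The log2 difference was 1.77 (SE 0.35, limma adjusted p = 0.00475). LucOS tumours had 5.58, 3.82 and 9.69 TPM of Lck with Aoah, against 2.49, 0.41 and 4.01 TPM with vector. Here the groups overlapped through LucOS vector 3, and the log2 difference of 1.26 (SE 0.40) did not pass (limma adjusted p = 0.172).

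Zap70 showed much the same separation in both models. Luc tumours had 2.69, 2.71, 3.06 and 4.07 TPM with Aoah, against 0.47, 0.38, 0.93 and 0.54 TPM with vector. LucOS tumours had 2.69, 1.67 and 4.69 TPM with Aoah, against 0.45, 0.30 and 0.84 TPM with vector. In each model the lowest Aoah tumour was above the highest vector tumour. The log2 difference was 1.39 in Luc (SE 0.23, limma adjusted p = 0.00152) and 1.34 in LucOS (SE 0.27, limma adjusted p = 0.033). The LucOS call was lost in 6 of 14 fits that left out 1 tumour, with the largest adjusted p, 0.122, without LucOS Aoah 3.

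Lat, the adaptor phosphorylated by Zap70, had 3.43, 2.93, 2.08 and 4.75 TPM in Luc Aoah tumours, against 1.06, 1.02, 0.77 and 0.74 TPM in Luc vector tumours. LucOS tumours had 3.32, 1.89 and 3.63 TPM of Lat with Aoah, against 1.72, 0.94 and 1.12 TPM with vector. No groups overlapped, although LucOS Aoah 2 and LucOS vector 1 lay close together. Its log2 difference was 1.15 in Luc (SE 0.22, limma adjusted p = 0.00436) and 0.79 in LucOS (SE 0.26, limma adjusted p = 0.184).

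Among the surface receptors, Cd2 had the largest difference. Its level was 5.79, 6.72, 5.18 and 10.69 TPM in Luc Aoah tumours, against 1.84, 0.20, 0.89 and 1.18 TPM in Luc vector tumours. LucOS tumours had 6.45, 4.62 and 10.94 TPM with Aoah, against 2.71, 0.89 and 2.75 TPM with vector. In both models all Aoah values lay above all vector values. The gap on the log2 scale was 2.02 in Luc (SE 0.33, limma adjusted p = 0.00143) and 1.42 in LucOS (SE 0.38, limma adjusted p = 0.104).

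Cd5 was scarce throughout. It had 0.83, 1.13, 0.43 and 0.78 TPM in Luc Aoah tumours, against 0.15, 0.01, 0.11 and 0.19 TPM in Luc vector tumours, and 1.04, 0.40 and 1.75 TPM in LucOS Aoah, against 0.31, 0.23 and 0.22 TPM in LucOS vector tumours. The groups were apart in both models at these low levels. The log2 difference, which the added 1 TPM compresses, was 0.67 in Luc (SE 0.20, limma adjusted p = 0.0314) and 0.67 in LucOS (SE 0.23, limma adjusted p = 0.216). Leaving out Luc Aoah 1, Luc Aoah 4, Luc vector 1, Luc vector 3 or Luc vector 4 ended the Luc call, with adjusted p-values of 0.0673, 0.0829, 0.0638, 0.0789 and 0.0643, as did testing genes without a filter (adjusted p = 0.0588).

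Cd28 was the exception among the 10 genes. It had 0.48, 0.88, 0.52 and 0.81 TPM in Luc Aoah tumours, against 0.66, 3.14, 1.74 and 0.45 TPM in Luc vector tumours. LucOS tumours had 0.62, 0.32 and 1.02 TPM with Aoah, against 0.46, 0.57 and 0.33 TPM with vector. The groups overlapped in both models, and the highest values were those of Luc vector 2 and Luc vector 3. The log2 difference was -0.46 in Luc (95% interval -1.05 to 0.13, limma adjusted p = 0.214) and 0.17 in LucOS (95% interval -0.51 to 0.85, limma adjusted p = 0.917). Both intervals lie below the log2 differences of Cd3d, Cd3g, Lck and Cd2 in the same model.

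**Figure D2:**
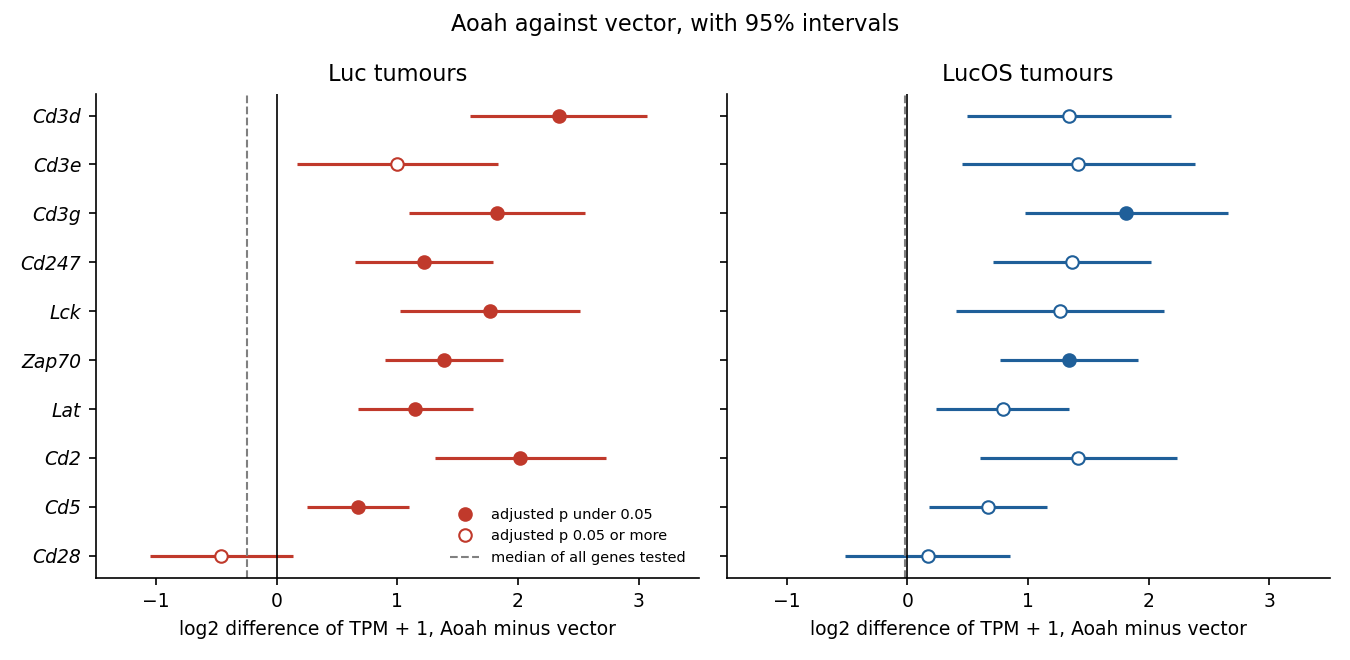
Log2 difference of TPM + 1, Aoah minus vector, for the 10 genes in Luc (left) and LucOS (right) tumours, with 95% intervals from limma. Filled points have an adjusted p under 0.05 and the dashed line is the median of all genes tested. Cd28 is the only gene whose interval includes 0 in either panel.

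A direct comparison of the models did not separate them for these genes. No member passed the limma test of the difference between the Aoah effects in LucOS and Luc. Of all genes, 0% were called higher and 0.00743% lower. An unadjusted limma p under 0.05 was found for 0 of the 10 genes, beside 10.2% of all genes. The difference was widest for Cd3d, at -0.996 (95% interval -2.11 to 0.12, limma adjusted p = 0.443), and its median over the members was -0.03, beside 0.23 for all genes. For Cd3g it was -0.01 (95% interval -1.13 to 1.10) and for Zap70 -0.05 (95% interval -0.80 to 0.70). These intervals leave room for effects that differ between the models by more than 1 log2 unit for Cd3g and by less for Zap70.

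The antigen plasmid was compared with its counterpart within each arm. Among vector tumours none of the 10 genes passed limma in LucOS against Luc, where 0% of all genes were called in either direction. Cd3d, Cd3g and Cd28 had an unadjusted limma p under 0.05, 3 of the 10, beside 14.2% of all genes. Cd3g was 3.54, 1.95 and 4.70 TPM in LucOS vector tumours, against at most 1.93 TPM in Luc vector tumours, a log2 difference of 0.88 (limma adjusted p = 0.344). Cd3g and Cd5 were the 2 genes whose LucOS vector values all lay above the Luc vector values, as did 2.12% of all genes. Among Aoah tumours no member passed either, and none was separate. Of all genes, 0% were called higher there, 0.0817% lower and 2.2% lay entirely above. Only 1 member, Cd3g (log2 difference 0.87, limma adjusted p = 0.674), had an unadjusted limma p under 0.05, beside 7.01% of all genes. The antigen and Aoah comparisons share tumours, so their values are not independent.

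Because most of these genes rose together, each of the other 7 was also expressed relative to the mean log2 level of Cd3d, Cd3e and Cd3g in the same tumour, with 0.1 TPM added. For Cd28 this value was -2.86 on average in Luc Aoah and 0.29 in Luc vector tumours, a difference of -3.15 (two-sided exact permutation p = 0.0286, the smallest that 4 against 4 allows). In LucOS it was -3.67 with Aoah and -2.16 with vector, a difference of -1.51 (exact permutation p = 0.1, the smallest that 3 against 3 allows). Every Aoah tumour had less Cd28 per CD3 chain than every vector tumour of its model. With labels permuted within both models together the difference was -2.33 (exact permutation p = 0.00143, the smallest possible, adjusted p = 0.03 over 21 tests). Cd28 itself was not called in either model. The log2 differences of Cd3d, Cd3e and Cd3g were 2.34, 1.00 and 1.83 in Luc and 1.34, 1.42 and 1.81 in LucOS. A gene that did not change would therefore also fall on this scale, and how many other genes do so was not counted. The ratio test cannot tell a change in Cd28 from the difference in the chains. Leaving out 1 Aoah tumour of either model gave an adjusted p of 0.06 at an exact permutation p of 0.00286, with differences of -2.31 to -2.36. Without Luc vector 2 and 3, where Cd28 was highest, the difference was -1.64 (exact permutation adjusted p = 0.07).

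Over both models together, the other 6 genes followed the CD3 chains more closely. Lat relative to the chains averaged -1.17 in Aoah and -0.46 in vector tumours over both models, a difference of -0.70 that did not pass (exact permutation p = 0.03, adjusted p = 0.21), and passed with 1 TPM added in place of 0.1 (exact permutation adjusted p = 0.03). Lck averaged -0.10 in Aoah and -0.01 in vector tumours (exact permutation p = 0.751). Cd247, Zap70, Cd2 and Cd5 differed by 0.06, 0.14, 0.21 and -0.33, and their exact permutation p-values were 0.779, 0.553, 0.219 and 0.21. For the first of these genes the models had opposite signs: -0.31 in Luc and 0.42 in LucOS for Cd247, -0.12 and 0.41 for Zap70, and 0.49 and -0.06 for Cd2. In LucOS the Cd247 and Zap70 values of Aoah tumours all lay above those of vector tumours (exact permutation p = 0.1 each, the smallest possible, adjusted p = 0.343). Over the 14 tumours, Pearson's r of each gene with the mean of the other members on the log2 scale was 0.86 to 0.97 for 9 genes and -0.30 for Cd28. These correlations describe tumours that share their groups and libraries.

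**Figure D3:**
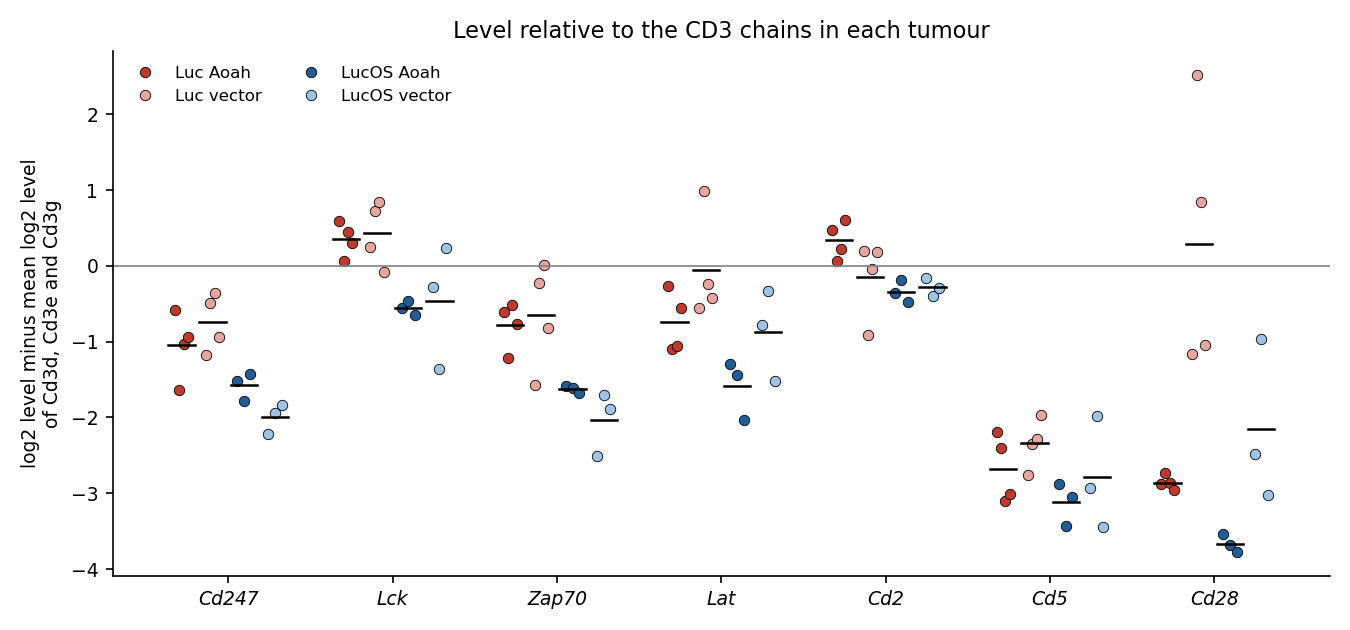
Log2 level of 7 genes minus the mean log2 level of Cd3d, Cd3e and Cd3g in the same tumour (0.1 TPM added), with points for tumours and bars for group means. Only for Cd28 do the Aoah tumours of both models lie below all vector tumours of the same model; its mean is -2.86 in Luc Aoah and 0.29 in Luc vector tumours.

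Other genes were ranked by how like their levels over the 14 tumours were to the mean of the members. T cell receptor genes, immunoglobulin genes and unnamed predicted genes were left out of the ranking. Those most alike were Gimap3 (Pearson's r = 0.98), Ptprcap (r = 0.97), Cd69 (r = 0.97), Art2b (r = 0.97), Cxcr4 (r = 0.96), Skap1 (r = 0.96), Gimap6 (r = 0.96), Cd8b1 (r = 0.96), Ccl5 (r = 0.95) and Tbc1d10c (r = 0.95). After the group means were taken out, r was still 0.96 for Gimap3 and 0.79 for Gimap6. They were ranked on the same tumours, and share libraries with the members.

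Within the CD3 complex the balance of delta and epsilon transcripts was not constant. Cd3d over Cd3e in TPM was 2.57, 1.42, 9.22 and 2.68 in Luc Aoah tumours, against 0.89, 2.64, 0.677 and 0.719 in Luc vector tumours. In LucOS it was 1.90, 2.49 and 0.735 with Aoah, against 4.05, 0.792 and 1.44 with vector. The groups overlapped in both models. The tumours with the highest ratios, Luc Aoah 3 and LucOS vector 1, were also those in which the fewest genes reached 1 TPM, 11501 and 11478, and in which TRB clones most exceeded TRA clones in the authors' receptor table, by 18.2 and 17.8 times. LucOS Aoah 3, with the most genes at 1 TPM (12836), had a ratio of 0.735. This bears on both chains' differences above, and the part of the libraries in it was not tested.

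**Figure D4:**
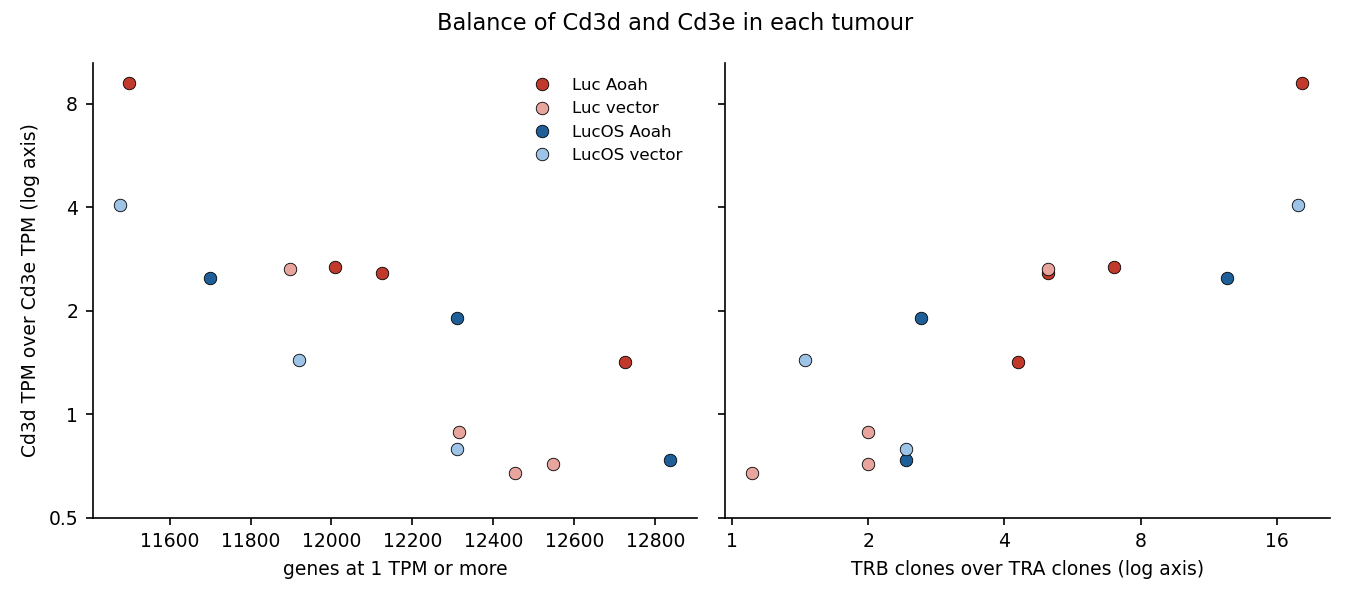
Cd3d TPM over Cd3e TPM in each tumour, against the number of genes at 1 TPM or more (left) and against the ratio of TRB to TRA clones on a log axis (right), coloured by group. The ratio runs from 0.677 to 9.22, and the tumours of each group are spread along both axes.

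The wider receptor machinery was followed through gene lists. Of 7 receptor constant chain genes, 4 were tested and 2 were called higher in Luc Aoah tumours, none lower, beside 7.93% and 14.3% of all genes. Trbc2, one of the beta constant chains, averaged 25.0 ± 7.40 TPM in Luc Aoah and 4.12 ± 1.62 TPM in Luc vector tumours (SD, n = 4 each), a log2 difference of 2.36 (limma adjusted p = 0.000339). Trbc1, the other beta constant chain, had a log2 difference of 2.58 (limma adjusted p = 0.00228). Reads of these near-identical genes may be split between them. Trac, the alpha constant chain, averaged 5.99 ± 3.38 and 2.26 ± 1.72 TPM in Luc Aoah and Luc vector tumours and did not pass (limma adjusted p = 0.117). In LucOS, Trbc2 alone of these passed, with a log2 difference of 1.75 (limma adjusted p = 0.0339). The median of the 4 genes was 1.75 in Luc and 1.61 in LucOS, beside -0.24 and -0.02 for all genes.

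Of the 3 coreceptor genes, Cd8a (log2 difference 1.00, limma adjusted p = 0.0421) and Cd8b1 (1.03, adjusted p = 0.0305) were higher in Luc Aoah tumours, and Cd4 was not called (0.57, limma adjusted p = 0.214). In LucOS the log2 differences were 1.19 for Cd8a, 1.39 for Cd8b1 and 1.18 for Cd4, and none passed.

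Among 30 further genes of proximal receptor signalling, 18 were tested, and 4 were higher and 2 lower in Luc Aoah tumours, beside the 7.93% and 14.3% of all genes. The list's median log2 difference was 0.22, beside -0.24 for all genes. Those called higher were Themis, a T cell lineage protein of the receptor pathway (log2 difference 1.26, limma adjusted p = 0.000426), Ptprc, the CD45 phosphatase that activates Lck (1.26, adjusted p = 0.00953), Skap1, an adaptor (0.97, adjusted p = 0.0239), and Prkcq, a kinase downstream of Lat (0.52, adjusted p = 0.0377). The 2 that were lower were Csk, the kinase that restrains Lck, averaged 29.4 TPM in Luc Aoah and 51.8 TPM in Luc vector tumours (-0.80, limma adjusted p = 0.048), and Cblb, a ubiquitin ligase, 1.23 and 2.87 TPM (-0.83, limma adjusted p = 0.0454). Both are expressed in many cell types, and Csk was far above the T cell genes in TPM. Ptpn22 and Ptpn6, phosphatases that also restrain receptor signalling, had log2 differences of 0.52 and 0.49 and did not pass (limma adjusted p = 0.293 and 0.262). In LucOS none of the 18 passed.

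Of 12 costimulatory and adhesion genes, 9 were tested, and 5 were higher and none lower in Luc Aoah tumours, beside 7.93% and 14.3% of all genes. The median log2 difference was 0.82, beside -0.24 for all genes. Sh2d1a, the SAP adaptor, averaged 3.63 ± 1.88 TPM in Luc Aoah and 0.175 ± 0.147 TPM in Luc vector tumours (log2 difference 1.89, limma adjusted p = 0.0043). Cd226, an activating receptor, had a log2 difference of 0.96 (limma adjusted p = 0.00636), Cd96 0.73 (limma adjusted p = 0.0206), Slamf6 0.82 (limma adjusted p = 0.048) and Cd27 0.84 (limma adjusted p = 0.0482). The ligands tested were higher as well: Cd48, the partner of Cd2 in mouse, averaged 22.8 ± 2.50 and 8.31 ± 1.76 TPM in Luc Aoah and Luc vector tumours (1.37, adjusted p = 0.00442), and Cd86, a ligand of Cd28, averaged 8.60 ± 1.55 and 3.31 ± 0.712 TPM (1.15, adjusted p = 0.0196). In LucOS no gene of either list passed.

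Of 14 genes known to be induced by receptor signalling, 5 were tested and 1 was called higher in Luc, beside 7.93% of all genes. That gene was Cd69, an early activation antigen, at 1.60 ± 0.351 TPM in Luc Aoah and 0.363 ± 0.0718 TPM in Luc vector tumours (log2 difference 0.92, limma adjusted p = 0.00442). Ifng, the effector cytokine interferon gamma, had a log2 difference of 0.59 (limma adjusted p = 0.0963), and Tnfrsf9, a receptor of activated T cells, one of 0.69 (limma adjusted p = 0.0988). For Tnfrsf4, another such receptor, it was 0.41 (limma adjusted p = 0.259). Egr1, an immediate early transcription factor used by many cell types, averaged 1.85 ± 0.859 TPM in Luc Aoah and 2.91 ± 1.40 TPM in Luc vector tumours, a log2 difference of -0.44 (limma adjusted p = 0.348). The median of these 5 genes was 0.59, beside -0.24 for all genes. Over the lists of constant chains, coreceptors, signalling, costimulation, ligands and induced genes, 16 genes were called higher in Luc, and 4 of them (Themis, Prkcq, Cd96 and Cd69) reached 1 TPM in no vector tumour. None of 4 tested T cell transcription factor genes of 12 was called by limma in Luc; Tcf7 averaged 4.16 ± 1.92 and 6.89 ± 1.95 TPM in Luc Aoah and Luc vector tumours (log2 difference -0.65, limma adjusted p = 0.124). The median of those 4 genes was -0.13, beside -0.24 for all genes.

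Markers of other cell types were counted beside the members. The counts in Luc stand beside 7.93% of all genes called higher and 14.3% called lower. Of 12 natural killer cell genes 3 were tested and all 3 were higher in Luc Aoah tumours (Gzma, Klrk1 and Cd160, which CD8 T cells also express), and the list summed to between 29.4 and 61.1 TPM in Luc Aoah tumours, against 3.03 to 10.1 TPM in Luc vector tumours. For LucOS tumours the list summed to between 30.6 and 67.0 TPM with Aoah, and to between 8.89 and 40.5 TPM with vector. Gzma averaged 30.1 TPM in Luc Aoah and 4.04 TPM in Luc vector tumours within that sum. Ncr1 reached at most 0.52 TPM in Luc Aoah and 0.13 TPM in Luc vector tumours, and Klrb1c at most 0.80 and 0.23 TPM. At these low levels their means were still higher in Luc Aoah, 0.34 against 0.075 TPM for Ncr1 and 0.55 against 0.18 TPM for Klrb1c. Of the list only Eomes had a lower mean in Luc Aoah (0.15 TPM) than in Luc vector tumours (0.66 TPM). Of 10 leukocyte genes all were tested and 7 were higher in Luc, summing to between 228.3 and 303.4 TPM in Luc Aoah tumours, against 74.3 to 115.4 TPM in Luc vector tumours. The same leukocyte sum was between 215.8 and 503.0 TPM in LucOS Aoah tumours, against 119.9 to 244.1 TPM in LucOS vector tumours. Of 11 macrophage genes all were tested and 3 were higher in Luc, namely Lyz2, Clec4f and Timd4. Lyz2 averaged 285.5 ± 39.3 TPM in Luc Aoah and 77.6 ± 14.8 TPM in Luc vector tumours, the largest difference in TPM within a sum that lay between 613.8 and 659.4 TPM in Luc Aoah tumours, against 269.3 to 457.3 TPM in Luc vector tumours. C1qa, C1qb and C1qc were not called, and Cd68 and Csf1r had log2 differences of -0.20 and -0.35 (limma adjusted p = 0.723 and 0.592). Of 7 plasma cell genes 5 were tested and 3 were higher in Luc, with sums between 95.9 and 154.2 TPM in Luc Aoah tumours, against 40.2 to 64.3 TPM in Luc vector tumours. They were Jchain (log2 difference 2.77, limma adjusted p = 0.0367), Mzb1 (1.43, adjusted p = 0.0129) and Eaf2 (0.82, adjusted p = 0.0408), whereas Sdc1 had -0.24 (limma adjusted p = 0.517). Of 10 B cell genes only Cd79b was tested, and it was higher in Luc (0.74, limma adjusted p = 0.0125). The 9 dendritic cell genes summed to between 4.12 and 7.13 TPM in Luc Aoah tumours, against 1.97 to 3.39 TPM in Luc vector tumours, and neither of the 2 tested was called. Of 10 platelet and mast cell genes 3 were tested, and Ppbp was lower in Luc (-1.58, limma adjusted p = 0.0144). Neutrophil genes went the other way from the members, with 3 of 6 tested lower in Luc and sums between 51.2 and 101.3 TPM in Luc Aoah tumours, against 138.0 to 385.7 TPM in Luc vector tumours. S100a8 and S100a9 made up most of these sums, averaging 32.8 and 34.2 TPM in Luc Aoah and 105.6 and 100.5 TPM in Luc vector tumours. Ngp, Csf3r and Camp were not called in Luc (limma adjusted p = 0.0527, 0.341 and 0.969), and in LucOS none of the 6 was called. Hepatocyte genes, the defining ones of the labelled tissue, were abundant in all tumours. Their sums lay between 6413 and 22561 TPM in Luc Aoah tumours, against 6131 to 8590 TPM in Luc vector tumours. Of 9 tested 2 were higher in Luc, Ttr (log2 difference 1.40, limma adjusted p = 0.00881) and Alb (1.41, adjusted p = 0.0357). Alb had the largest mean of the list, 7185 TPM in Luc Aoah and 2357 TPM in Luc vector tumours. Of the 9, 6 had a positive log2 difference. Cps1, Apob and Ass1 had -0.77, -0.52 and -0.18 and did not pass (limma adjusted p = 0.0609, 0.0963 and 0.659). The part of these cells in the levels of the members was not tested.

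The authors' deposited table for Luc gave an adjusted p under 0.05 and a positive fold change to 9 of the 10 genes, beside 15.6% of all genes with an adjusted p in that table. In the authors' deposited table the log2 fold change was 3.72 for Cd3d, 3.11 for Cd5 and 1.93 for Cd3e (adjusted p = 0.000388), and -1.02 for Cd28 (adjusted p = 0.162). For LucOS the authors' deposited table called 4 genes, beside 1.99% of all genes: Zap70 (2.39, adjusted p = 0.00154), Cd3g (2.05, adjusted p = 0.00415), Cd247 (2.39, adjusted p = 0.00625) and Cd3e (2.00, adjusted p = 0.0249). The authors' deposited table did not call Cd3d in LucOS (1.19, adjusted p = 0.362). Which group is the numerator is not stated there and was read from Aoah, whose sign is positive in both tables. The authors' deposited tables thus called Cd3e in both models and Cd247 in LucOS, which limma did not, and Cd28 was called by neither. The limma calls of Cd3g and Zap70 in LucOS were lost without a filter (limma adjusted p = 0.142 and 0.102) and when only LucOS tumours were fitted (limma adjusted p = 0.221 each), and that of Cd3g also with 0.1 TPM added in place of 1 (limma adjusted p = 0.0643).

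The call counts were also taken without the tumours that stood apart. Without Luc Aoah 3 and LucOS Aoah 3, 8 members were called higher in Luc and 0 in LucOS, beside 6.64% and 0.0982% of all genes. Without Luc vector 1 and 3, the vector tumours with raised Aoah, 5 were called in Luc, namely Cd3d, Cd3g, Lck, Zap70 and Cd2, and 0 in LucOS. Of all genes, 2% were called higher in Luc and 0.128% in LucOS in that fit. The Luc calls of Cd247 and Lat (limma adjusted p = 0.0654 each) and of Cd5 (limma adjusted p = 0.194) were lost there. Those 5 passed in Luc in all 27 alternative fits run, and no fit called any member lower.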

How the data were processed

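Expression was taken from the authors' deposited table of log2 values of TPM plus 1 for 14 tumours; per the labels' protocols, RNA was extracted with TRIzol, captured on poly-T beads and primed with random hexamers, and whether libraries were directional is not stated. Per the submitters' processing notes, the authors used RSEM, DESeq2 and build mm39, with no versions listed and no aligner named. The authors' 2 deposited tables of comparisons hold log2 fold changes, mean signal, Wald scores and p-values per Ensembl identifier; symbols were matched through a GENCODE M21 name table. A further deposited table holds receptor clone measures per tumour, used as scores of no stated scale.

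The test was that of limma 3.58.1 (R 4.3.3) applied to log2(TPM + 1), a scale that understates changes of low genes. All 14 tumours entered 1 model with a mean for each group, for genes at 1 TPM or more in at least 3 tumours, with a variance trend and robust moderation, and Benjamini-Hochberg adjustment at 0.05 over all genes. The fit and the exact permutation test were tested on simulated data. Promoter windows are RefSeq's. The 10 genes, the lists and the tests were chosen with earlier results of these data known. The genes named are the 10 members, Aoah, the 10 ranked genes most like the members and up to 4 genes per list with the smallest p in Luc. Receptor, immunoglobulin and unnamed predicted genes were not ranked. Others were named after their values were seen. They are list members called beyond these (Csk, Cblb, Cd27) and the low markers Ncr1 and Klrb1c. The rest are Egr1, Ptpn22, Ptpn6, Cd68, Csf1r, C1qa, C1qb, C1qc, Eomes, Csf3r, Camp, Apob and Ass1. Alternatives covered the pseudocount, the filter, scaling, the samples fitted, the moderation, a replicate block and left-out tumours. No count per gene was held, so no count test was run, and the depth per tumour is unknown.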

Additional observations from a re-analysis of the deposited data

Results flagged for a closer look

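Of 32 sets of values from Luc groups of 4 tumours, 4 were marked as holding a tumour far from the other 3. The cut-off marks about 1 in 20 of independent, normally distributed sets. These sets were raw values and ratios that share genes and tumours, so the rates cannot be compared. Cd3d was 1.37 TPM in Luc vector 1, above the 0.63 to 0.69 TPM of the other Luc vector tumours and still below every Luc Aoah tumour. The ratio of Cd3d to Cd3e was 9.22 in Luc Aoah 3, against 1.42 to 2.68 in the other Luc Aoah tumours, and 2.64 in Luc vector 2, against 0.677 to 0.89 in the other Luc vector tumours. Small noncoding genes took 8.11% of the TPM of Luc Aoah 3.

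Apart from the ratio of TRB to TRA clones set beside Cd3d over Cd3e, the receptor clone table was used in no comparison of Aoah with vector tumours above. Its T cell receptor beta (TRB) clone numbers were higher in every Aoah tumour than in every vector tumour of the same model. The lowest Luc Aoah tumour had 77 TRB clones, with a range of 77 to 135, against 4 to 12 in Luc vector tumours. The lowest LucOS Aoah tumour had 81, with a range of 81 to 157, against 17 to 71 in LucOS vector tumours. These numbers are not scaled to depth. The alpha chain (TRA) numbers overlapped, at 5 to 27 in Luc Aoah and 1 to 9 in Luc vector tumours, and at 7 to 65 in LucOS Aoah and 4 to 20 in LucOS vector tumours.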

How the results depend on the processing

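Of the 10 members, 8 were called higher in Luc. The count was 7 to 9 in 26 of 27 alternatives and 5 without Luc vector 1 and 3, and 7 to 8 when 1 tumour was left out. The share of all genes called higher in Luc was 2% without Luc vector 1 and 3, and 3.89% to 9.1% when 1 tumour was left out. In LucOS, 2 were called. The count was 0 without a filter, when only LucOS tumours were fitted and with the replicate block. Shares of all genes called higher there were 0.0368%, 0.0446% and 0%. The count was also 0 without Luc vector 1 and 3 (0.128% of all genes) and without Luc Aoah 3 and LucOS Aoah 3 (0.0982%). With 1 tumour left out it was 0 to 4, beside 0.0821% to 2.23% of all genes. Without the 3 tumours whose TRB clones were over 10 times their TRA clones, a choice made after seeing the data, 8 were called in Luc and 3 in LucOS. Of all genes, 6.4% and 0.497% were called higher in that fit. No member was called in the other 3 contrasts, or lower in any, in any of these fits. The Cd28 difference in LucOS changed sign under quantile normalization (-0.0098, limma adjusted p = 0.992) and was 0.17 in the fit reported. Members could drop below the filter when tumours were left out: Cd5 and Cd28 were tested in 11 of 14 such fits.

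Of 21 tests relative to the CD3 chains, 1 passed; 2 passed with 0.5 TPM added, 3 with 1 TPM added, and 0 to 1 when 1 tumour was left out. In alternatives added after seeing the data, 0 passed without the 3 tumours of high TRB to TRA clones, 0 without Luc vector 2 and 3, and 0 without Luc vector 1 and 3; the Cd28 difference was -2.41, -1.64 and -2.56 there.

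Over all genes, 1068 were called higher and 1920 lower in Luc, with 265 to 2145 and 90 to 4051 over the alternatives; in LucOS 101 and 29 were called, with 0 to 299 and 0 to 79. Median centring called 2145 higher and 1975 lower in Luc, and fitting only Luc tumours 1247 and 1306. Median centring moved the median of all genes in Luc from -0.24 to 0.07, and the median of the members was 1.62 there. The same replicate number marks no shared animal or day in the labels. Deviations of same-numbered tumours correlated at -0.55 to 0.00 in Luc and -0.55 to 0.10 in LucOS. For differently numbered tumours they correlated at -0.21 to 0.47 in Luc and -0.45 to 0.49 in LucOS. With 3 or 4 tumours per group, these values cannot decide whether the numbers pair the tumours. With the replicate block 7 members were called in Luc, and 436 genes higher and 182 lower. Depth is unknown, and 4 against 4 or 3 against 3 tumours limit the precision.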

Other observations

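Relative to the CD3 chains, several signalling genes were lower in LucOS than in Luc tumours. This comparison was made after the values were seen, over 7 genes in Aoah tumours, in vector tumours and in both (21 two-sided exact permutation tests). Zap70 relative to the mean log2 level of Cd3d, Cd3e and Cd3g was -2.51 to -1.59 in the 6 LucOS tumours and -1.58 to 0.01 in the 8 Luc tumours. Its difference was -0.85 among Aoah tumours and -1.38 among vector tumours, and -1.11 with labels permuted within both (exact permutation p = 0.00163, adjusted p = 0.0286). Lck differed by -0.90 (exact permutation p = 0.00327, adjusted p = 0.0286), Cd247 by -0.89 (exact permutation p = 0.00408, adjusted p = 0.0286), Lat by -0.83 and Cd28 by -1.63 (exact permutation adjusted p = 0.0377 each). Cd2 and Cd5 differed by -0.41 and -0.44 and did not pass (exact permutation adjusted p = 0.0922 and 0.134). No gene passed within Aoah or within vector tumours alone, where the smallest possible exact p of 0.0286 gave an adjusted p of 0.0601. Cd3g, which stands in the denominator, was the member with a positive log2 difference at an unadjusted p under 0.05 in LucOS against Luc in both arms, and none of the 10 genes was called by limma in that comparison. All 21 tests share this denominator. Taken alone, the genes differed among vector and Aoah tumours by -0.05 and -0.10 (Zap70), 0.33 and -0.18 (Lck), 0.01 and 0.15 (Cd247), 0.24 and -0.12 (Lat), and -0.66 and -0.03 (Cd28). The tests cannot tell a change in these genes from the higher CD3 chains, and other genes were not counted.

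The log2 ratio of Cd3d to Cd3e fell with the number of genes that reached 1 TPM in a tumour. This relation was noticed in the data and then tested on the same tumours, as 1 of 6, so its p-values do not account for that search. Tumours were permuted without regard to their groups. Over 14 tumours Pearson's r was -0.83 (permutation p = 0.00021, adjusted p = 0.00063) and Spearman's rho -0.85 (permutation p = 0.0002, adjusted p = 0.0006), and r was -0.71 without the 2 tumours farthest from the median. Within the 7 Aoah tumours r was -0.90 and rho -0.89 (exact permutation p = 0.000992 and 0.0123), and within the 7 vector tumours r was -0.96 and rho -0.93 (exact permutation p = 0.000794 and 0.00675). The same ratio rose with the log2 ratio of TRB to TRA clones, with r = 0.88 and rho = 0.88 over 14 tumours (permutation p = 4e-05 and 9e-05, adjusted p = 0.00024 and 0.00054), and r was 0.78 without the 2 farthest tumours. Within Aoah tumours r was 0.85 and rho 0.86 (exact permutation p = 0.00913 and 0.0238). Within vector tumours r was 0.87 and rho 0.72 (exact permutation p = 0.0151 and 0.077), and r was -0.09 without the 2 farthest tumours, so that relation rests on those samples. TRA clones numbered only 1 in Luc vector 2 and 2 in Luc vector 4, so the ratio of clones is coarse. No explanation was tested.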
